A study of Mus musculus with 24 samples.

Results

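Voltage-gated and potassium channel genes were described here in HL-1 cells, a line of mouse atrial cardiomyocyte origin, after knockdown of the ubiquitin ligase MuRF1 (gene Trim63) and after cyclic stretch. Members were all genes of the table whose symbols begin with Kcn, with Scn and a digit, with Cacna, Cacnb or Cacng, or with Hcn and a digit. They numbered 135 of 20351 genes, and 70 of them were high enough to be tested, among 14411 testable genes. Poly(A) RNA was sequenced from 24 libraries in 4 groups of 6: stretched and non-stretched cells carrying the hairpin against MuRF1, and stretched and non-stretched cells carrying a scrambled hairpin, called control cells. All groups were transduced transiently with adenovirus (multiplicity of infection, MOI, 30), so the control cells also carried virus and a hairpin, and all were kept in serum-free medium. Stretch began 48 h later and lasted 60 min at 15% and 1 Hz; the treatment protocol in the labels has uniaxial stretch, and the sample characteristics have biaxial stretch. All cells were from a single line and a single hairpin was used. The labels do not say whether replicates were separate cultures, so p-values here reflect the spread among these libraries alone, possibly a technical one. The library codes carry a number common to a group and unlike that of the other groups; should it stand for a batch, batch and group cannot be told apart.

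These genes encode the proteins that shape the cardiac action potential. Voltage-gated sodium channels carry the upstroke, calcium channels carry the inward current that couples excitation to contraction, and potassium channels repolarise the membrane. HCN channels open on hyperpolarisation and carry the pacemaker current of sinoatrial and other spontaneously active cells. Pore subunits work with auxiliary subunits that set their trafficking and gating.

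Trim63, the targeted gene, did not overlap between knockdown and control libraries. Its mean was 68.5 ± 7.92 CPM (counts relative to the library total, scaled with edgeR's TMM factors) in stretched knockdown cells and 781 ± 81.7 CPM in stretched control cells (SD, n = 6 each), 91.2% lower. For non-stretched cells the means were 55.7 ± 1.17 CPM under knockdown, against 640 ± 68.1 CPM in controls (SD, n = 6 each), 91.3% lower. A two-sided exact permutation test gave p = 0.00216 for each, the smallest that 924 divisions allow. Depth ran from 23.6 to 54.8 M estimated counts; the lowest total was that of stretched control replicate 5, and the next lowest was 37.7 M. That library stood apart on the second principal component (10.2% of variance), at 54.7 against -14.9 to 13.2 in the others. Non-stretched knockdown replicate 4 stood apart less strongly on the fourth (3.59%), at -25.7 against -9.96 to 11.1. Of 8 atrial cardiomyocyte markers, Tnnt2, Ryr2 and Myl7 were among those plainly present. Myl4 and Myh6 were scarcer, with group means of 4.22 to 6.18 CPM for Myl4 and 2.07 to 6.39 CPM for Myh6. Nppa, the atrial natriuretic peptide gene, averaged only 0.393 to 0.56 CPM in the 4 groups.

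Promoter windows are shown for 4 members on which the results turn: Kcnh2, Hcn4 and Kcnj5, which fell with the knockdown, and Cacng7, which rose. Each is the 250 bases before the RefSeq transcription start on GRCm38.p6, written 5′ to 3′ on the gene's strand, with motif matches in capitals. The Kcnh2 window (chr5:24329592-24329841, minus strand) lay inside the longer GENCODE gene but in none of its exons, ahead of a start within the gene. The windows of Hcn4 (chr9:58822699-58822948, plus strand) and Cacng7 (chr7:3332575-3332824, plus strand) lay outside any GENCODE exon, and that of Kcnj5 (chr9:32344345-32344594, minus strand) overlapped its first exon by 6 bases.
Kcnh2: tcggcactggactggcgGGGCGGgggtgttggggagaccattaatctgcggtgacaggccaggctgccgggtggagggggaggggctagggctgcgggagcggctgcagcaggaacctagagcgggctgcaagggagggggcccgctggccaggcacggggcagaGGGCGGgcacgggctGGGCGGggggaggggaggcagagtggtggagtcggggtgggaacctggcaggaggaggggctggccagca
Hcn4: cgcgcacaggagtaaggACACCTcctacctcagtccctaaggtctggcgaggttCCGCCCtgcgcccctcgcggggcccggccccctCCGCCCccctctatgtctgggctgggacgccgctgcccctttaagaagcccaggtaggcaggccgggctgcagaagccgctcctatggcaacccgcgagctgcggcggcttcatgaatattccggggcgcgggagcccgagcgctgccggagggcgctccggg
Kcnj5: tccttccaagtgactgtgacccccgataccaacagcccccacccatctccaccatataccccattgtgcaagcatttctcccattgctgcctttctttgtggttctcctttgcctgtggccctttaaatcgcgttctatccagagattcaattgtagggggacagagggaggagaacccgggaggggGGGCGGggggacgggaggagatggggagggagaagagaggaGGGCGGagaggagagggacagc
Cacng7: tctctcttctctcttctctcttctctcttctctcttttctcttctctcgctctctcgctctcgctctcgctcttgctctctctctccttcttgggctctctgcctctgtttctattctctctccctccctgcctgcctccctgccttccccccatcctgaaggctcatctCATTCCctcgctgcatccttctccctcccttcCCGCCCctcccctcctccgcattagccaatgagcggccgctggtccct

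The capitals mark the GC box (GGGCGG, or CCGCCC on the other strand) in all 4 windows, the T-box motif AGGTGT as ACACCT in Hcn4, and the TEAD motif GGAATG as CATTCC in Cacng7. Of the 135 members, 97 had a RefSeq promoter entry. A GC box, searched on both strands, was found in 12 of the 15 members with an entry that fell in both knockdown comparisons. It was found in 2 of 3 that rose in both, in 11 of 19 called in neither, and in 32.7% of all 32851 promoters of the same length. A member was counted if any of its promoter entries matched. The percentages over all promoters count single entries of every gene, tested or not, so the units differ. The T-box motif was found in 2 of the 15 (11.8% of all promoters), TEAD in 3 (12.6%), and TATAAA in 1 (12.4%). None of the 15 windows held the motif of GATA factors (AGATAA, 9.99% of all), of AP-1 (TGANTCA, 6.75%) or of NKX2-5 (CACTTAA, 2.1%), or a MEF2 (0.508%) or CArG (1.47%) motif. No listed motif overlapped another in the windows shown, and a match is a description of the letters only.

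Levels per transcript length set the order of the members in non-stretched control cells. Kcnh2, which encodes the pore of the rapid delayed rectifier, was highest at 66.0 CPM per kb, followed by the calcium channel beta subunit Cacnb3 at 45.5 CPM per kb. Next came Cacna2d1, the alpha2delta subunit of the L-type channel, at 25.5 CPM per kb, and Kcng2, a silent subunit that modifies Kv2 channels, at 23.6 CPM per kb. The pacemaker channel gene Hcn4 stood at 13.7 CPM per kb. In the non-stretched knockdown cells the same 5 genes stood at 26.8, 37.0, 13.6, 13.0 and 6.77 CPM per kb, in the order just given, so that Cacnb3 was above Kcnh2 there. The plot of levels per length shows this change of order.

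**Figure D1:**
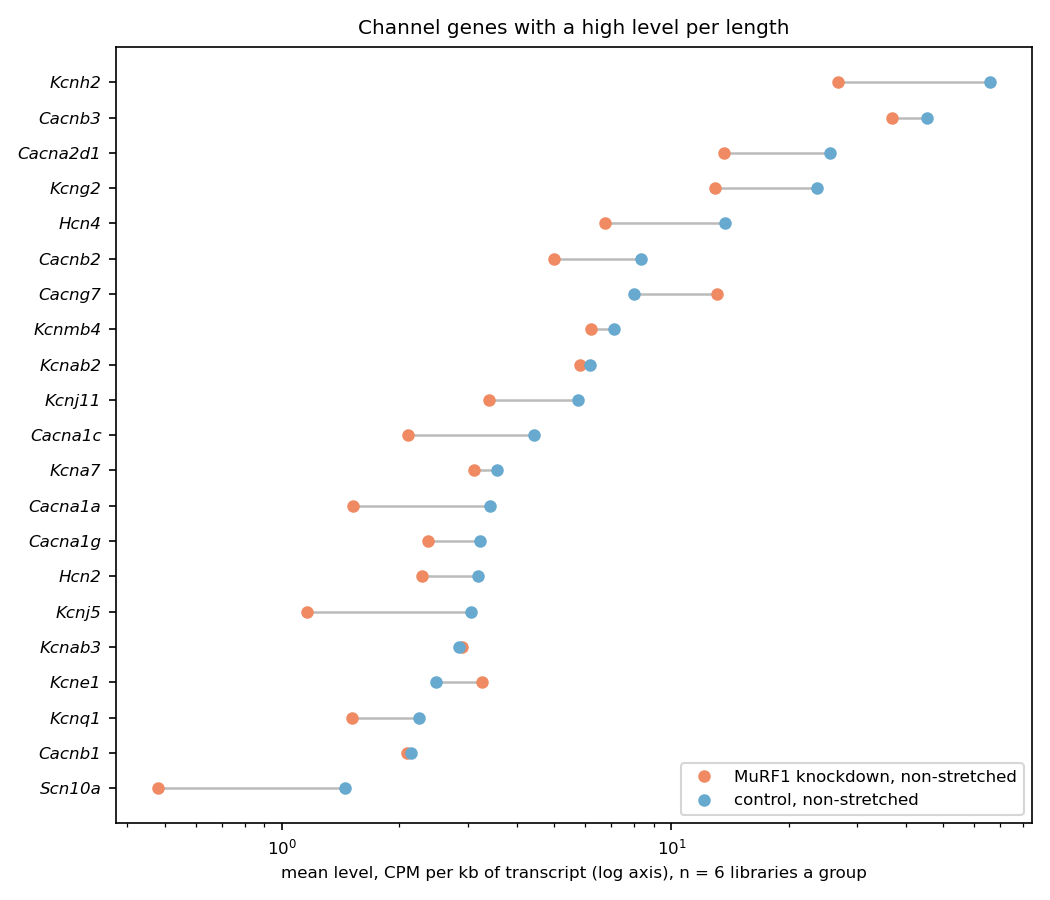
Mean level in CPM per kb of the longest protein-coding transcript (log axis) for 21 channel genes with a high level per length, in non-stretched knockdown cells and non-stretched control cells (n = 6 libraries each). Kcnh2 stood at 26.8 CPM per kb in knockdown cells and 66.0 CPM per kb in control cells, and Cacng7 and Kcne1 were among the genes higher in knockdown cells.

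With the knockdown, most calcium channel pore and inward rectifier genes that were called fell, while the calcium channel gamma subunits Cacng4 and Cacng7 rose. In stretched cells 13 of the 70 members rose and 24 fell by edgeR's quasi-likelihood test at an adjusted p under 0.05, or 52.9%, beside 52.0% of all tested genes (25.1% up, 26.9% down). In non-stretched cells 14 rose and 28 fell, or 60.0%, beside 57.8% (28.0% up, 29.7% down). The share called was thus near the background. The members' median log2 fold change was -0.15 with stretch and -0.07 without, beside 0.00 and 0.01 over all tested genes. Scaled to library totals without TMM, an alternative chosen after seeing the data, the median of all genes shifted to 0.12 and 0.14. The members' medians were then -0.03 and 0.06. Calls among members were 18 up and 22 down with stretch and 17 up and 22 down without. These were 57.1% and 55.7% of the members, beside 60.7% and 65.6% of all tested genes. Without both outlying libraries, also chosen after seeing the data, 42 and 43 members were called, or 60.0% and 61.4%, beside 58.8% and 62.0% of all tested genes.

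Of the members that fell in stretched cells, all 24 also fell in non-stretched cells, which is 100% of the first list and 85.7% of the second. Of the risers, 10 were shared, 76.9% of the 13 and 71.4% of the 14. The same overlap over all tested genes was not computed, so these shares are not shown to be particular to channel genes. In 20 members every stretched knockdown library was below every stretched control library, and in 5 every one was above; of all tested genes 31.9% did not overlap, 17.3% below and 14.6% above. Without stretch the counts were 21 and 4, beside 37.7% of all tested genes, 21.4% below and 16.3% above. Among 30 channel genes known for cardiac roles, 22 were tested. With the knockdown 4 rose and 15 fell with stretch, and 3 rose and 16 fell without, with medians of -0.56 and -0.66. The share called was 86.4% in each, beside 52.0% and 57.8% of all tested genes. This list was chosen with earlier results of these data known. The summed counts of all 135 members made up 0.0822% to 0.0875% of a library in stretched knockdown cells, against 0.121% to 0.149% in stretched control cells. Without stretch they made up 0.0743% to 0.0842% in knockdown cells and 0.123% to 0.129% in control cells. The 0.149% was that of the outlying stretched control replicate 5, and the next highest of its group was 0.128%. Such a sum is weighted toward the abundant members.

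The atrial cardiomyocyte markers moved the same way. Beside 26.9% of all tested genes with stretch and 29.7% without, 7 of the 8 markers fell in each knockdown comparison, all but Nppa. Their summed level was 1033 to 1088 CPM in stretched knockdown cells, against 1926 to 2368 CPM in stretched control cells, and 890 to 970 CPM in non-stretched knockdown cells, against 1988 to 2241 CPM in non-stretched control cells. Their part in the channel results was not tested, and in bulk samples fewer cells of a type and less RNA per cell cannot be told apart. Summed fibroblast markers, mostly Col1a1, were 66.7 to 70.8 CPM in stretched knockdown cells against 132 to 154 CPM in stretched control cells, and 56.8 to 69.9 CPM in non-stretched knockdown cells against 154 to 162 CPM in non-stretched control cells. Smooth muscle markers, mostly Acta2, were 1733 to 1822 CPM in knockdown cells against 2340 to 2726 CPM in control cells with stretch. Without stretch they were 1608 to 1751 CPM in knockdown cells against 2348 to 2571 CPM in control cells. Of 5 fibroblast markers tested 4 fell in each comparison, and Pdgfra was not called. Of 4 smooth muscle markers 2 fell in each, and Cnn1 was not called. Myh11 rose by 0.59 on the log2 scale with stretch alone (edgeR adjusted p = 0.0109). The part of both lists was not tested. Neuronal markers summed to 6.01 to 7.95 CPM in stretched knockdown cells against 5.12 to 6.98 CPM in stretched control cells, and to 6.30 to 6.76 CPM in non-stretched knockdown cells against 5.90 to 7.23 CPM in non-stretched control cells. Most of that was Syt1, while Snap25, Rbfox3 and Stmn2 were at or near 0. Of the 3 neuronal markers tested, 2 rose with the knockdown in stretched cells, Syt1 by 0.19 and Tubb3 by 0.75 on the log2 scale (edgeR adjusted p = 0.0356 and 0.0112), and none was called without stretch; their part in the results for channels known from neurons was not tested.

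**Figure D2:**
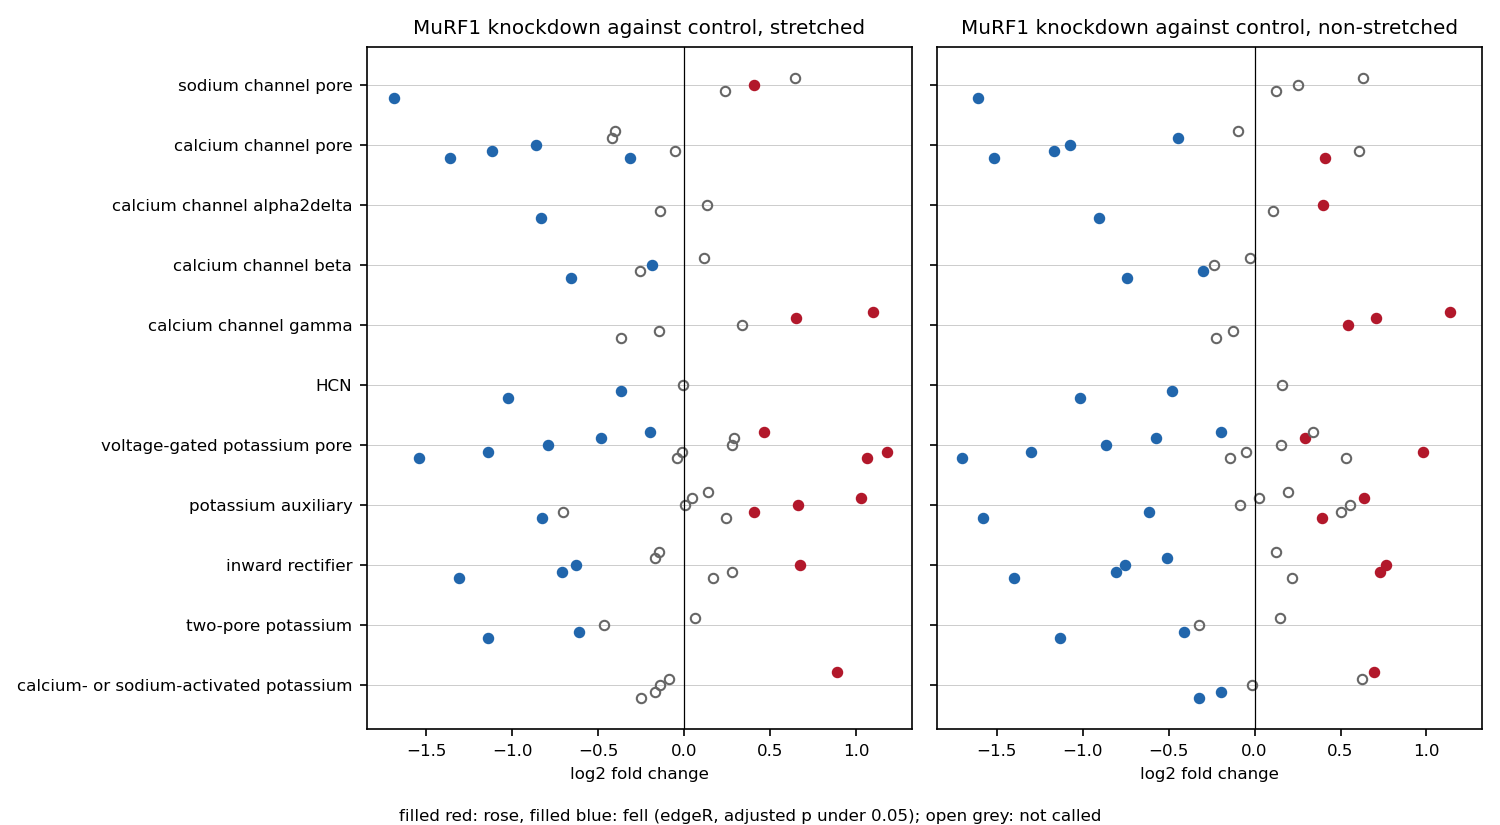
Log2 fold change of 64 tested channel genes, knockdown against control cells, by family, with stretch (left) and without (right). Each point is a gene, shifted slightly up or down only so that points stay apart; filled blue points fell, filled red points rose, and open points were not called (edgeR, adjusted p under 0.05). Most calcium channel pore genes lay to the left, and the gamma subunits called lay to the right.

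Hcn4, the main isoform of the sinoatrial node (ENSMUSG00000032338, chromosome 9, 58823412 to 58863175 on GRCm38, plus strand, 8 exons), whose promoter is shown above, had a lowest, median and highest level of 45.0, 47.8 and 49.0 CPM in stretched knockdown cells, against 84.5, 94.9 and 110 CPM in stretched control cells. Without stretch it had 37.3, 40.8 and 45.4 CPM, against 75.8, 83.3 and 91.4 CPM in control cells. The groups did not overlap, and Hcn4 fell by 1.03 (SE 0.0532, adjusted p = 3.12e-15) with stretch and by 1.02 (SE 0.0536, adjusted p = 3e-15) without, by edgeR. Hcn2 fell by a smaller amount, 0.37 and 0.48 on the log2 scale (edgeR adjusted p = 0.000123 and 2.15e-06). Hcn3 was not called, at a median of 1.68 CPM in stretched knockdown cells and 1.62 CPM in stretched control cells.

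Among the calcium channel pores, 4 of 7 tested genes fell in each comparison and only Cacna1h, without stretch, rose. The share called was 57.1% with stretch and 71.4% without, beside 52.0% and 57.8% of all tested genes. Cacna1c encodes Cav1.2, the L-type pore of working cardiomyocytes (ENSMUSG00000051331, chromosome 6, 118587240 to 119196418, minus strand, 47 exons). Its lowest, median and highest levels were 31.5, 32.3 and 33.8 CPM in stretched knockdown cells, against 56.3, 57.2 and 69.7 CPM in stretched control cells. Without stretch they were 23.1, 28.2 and 29.8 CPM, against 54.9, 58.4 and 62.5 CPM. The groups were far apart, and the log2 fold changes were -0.86 (SE 0.0519, edgeR adjusted p = 5.99e-14) and -1.07 (SE 0.0523, adjusted p = 5e-16).

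Cacna1a, the P/Q-type pore known mainly from neurons, fell by 1.12 with stretch and by 1.16 without (SE 0.0488 and 0.0485, edgeR adjusted p = 7.26e-17 and 1.89e-17); an antisense transcript, Gm16183, overlaps 435 of its exon bases. The T-type pore Cacna1g fell by 0.31 and 0.44 (edgeR adjusted p = 0.000149 and 9.31e-07). Cacna1d, which encodes Cav1.3, the pore of sinoatrial L-type current, was scarce, with medians of 0.103 CPM in stretched knockdown cells and 0.361 CPM in stretched control cells; it fell by 1.37 (SE 0.421, edgeR adjusted p = 0.00793), and it overlaps 589 exon bases of Chdh on the other strand. The second T-type pore, Cacna1h, had a log2 fold change of -0.06 with stretch (adjusted p = 0.799), which turned to 0.06 on library totals, and of 0.41 without (SE 0.159, edgeR adjusted p = 0.03).

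Of the auxiliary calcium channel subunits, 1 of 3 tested alpha2delta genes and 2 of 4 beta genes fell with stretch and none rose. Without stretch 1 alpha2delta gene rose and 1 fell, and 2 beta genes fell. Of all tested genes 25.1% rose and 26.9% fell with stretch, and 28.0% rose and 29.7% fell without. Cacna2d1 (ENSMUSG00000040118, chromosome 5, 15934691 to 16374511, plus strand, 39 exons), which brings the pore to the membrane, had 107, 116 and 118 CPM in stretched knockdown cells, against 190, 202 and 213 CPM in stretched control cells. Its log2 fold change was -0.83 (SE 0.0449, edgeR adjusted p = 6.47e-15), and -0.90 (SE 0.0451, adjusted p = 8.07e-16) without stretch. Cacna2d3, another alpha2delta subunit, rose by 0.40 without stretch (edgeR adjusted p = 0.018), a call lost without non-stretched knockdown replicate 5 (adjusted p = 0.0537). The beta subunit Cacnb2, the main one of heart, had 21.1, 22.2 and 25.03 CPM in stretched knockdown cells, against 27.2, 35.4 and 40.5 CPM in stretched control cells, a log2 fold change of -0.66 (SE 0.0601, edgeR adjusted p = 3.73e-10). Cacnb3 fell less, by 0.19 and 0.30 (adjusted p = 3.51e-05 and 1.8e-08); on library totals the fall with stretch was 0.08 and was not called (adjusted p = 0.11).

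Gamma subunits, relatives of the skeletal muscle calcium channel gamma1 and of the AMPA receptor auxiliary proteins, held 2 risers of 5 tested genes with stretch and 3 of 5 without, beside 25.1% and 28.0% of all tested genes, and none of the 5 fell past the threshold. Cacng2 and Cacng6, which were not called, had negative log2 fold changes, -0.37 and -0.15 with stretch and -0.23 and -0.12 without. Cacng7 (ENSMUSG00000069806, chromosome 7, 3332955 to 3368221, plus strand, 6 exons) had 25.6, 26.8 and 27.7 CPM in stretched knockdown cells, against 15.5, 16.5 and 21.3 CPM in stretched control cells. Without stretch it had 27.8, 28.4 and 31.3 CPM, against 16.2, 18.1 and 19.0 CPM. Every knockdown library was above every control library, with log2 fold changes of 0.65 (SE 0.0559, edgeR adjusted p = 1.15e-10) and 0.71 (SE 0.0552, adjusted p = 1.31e-11). Cacng4 was scarcer, with medians of 4.23 CPM in knockdown and 1.91 CPM in control cells with stretch, and rose by 1.10 and 1.14 on the log2 scale (edgeR adjusted p = 8.03e-11 and 2.03e-11). Cacng8 rose by 0.54 without stretch (edgeR adjusted p = 0.00606), a call lost with the authors' scaling factors (adjusted p = 0.0532).

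**Figure D3:**
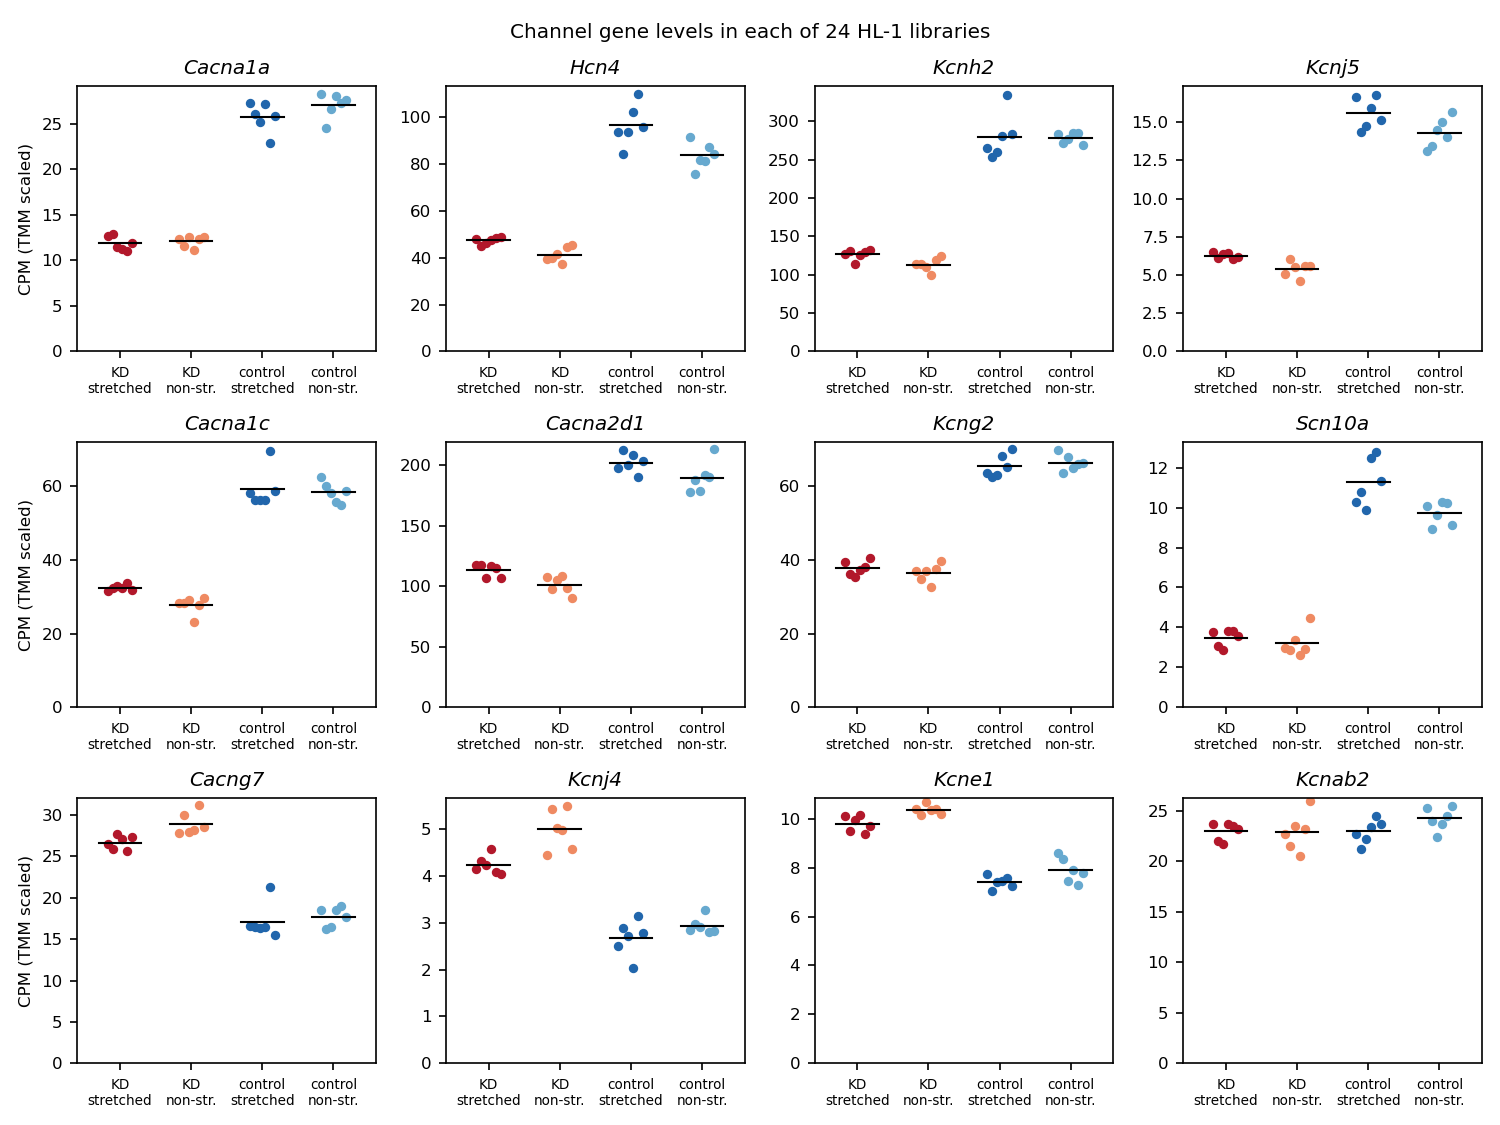
Level in CPM of 12 channel genes in each of the 24 libraries, by group, from stretched knockdown cells on the left to non-stretched control cells on the right; points are libraries and bars are group means (n = 6). Knockdown libraries lay below all control libraries for Cacna1a, Hcn4, Kcnh2, Kcnj5, Cacna1c, Cacna2d1, Kcng2 and Scn10a and above them for Cacng7, Kcnj4 and Kcne1, while Kcnab2 overlapped.

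Of 10 sodium channel pore genes, 5 passed the filter on low counts and were tested. Scn10a, a sodium channel best known from sensory neurons, lies on chromosome 9 (ENSMUSG00000034533, 119608456 to 119719322, minus strand, 28 exons) and fell. It had 2.89, 3.67 and 3.82 CPM in stretched knockdown cells, against 9.89, 11.1 and 12.8 CPM in stretched control cells, and 2.60, 2.95 and 4.47 CPM, against 8.91, 9.86 and 10.3 CPM, without stretch. The log2 fold changes of Scn10a were -1.69 (SE 0.0965, edgeR adjusted p = 2.15e-14) and -1.61 (SE 0.0979, adjusted p = 6.34e-14). Scn2a1, a neuronal pore gene, rose by 0.40 with stretch (edgeR adjusted p = 0.00527), a call lost with the authors' own scaling factors (0.25, adjusted p = 0.139).

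Voltage-gated potassium pores moved both ways, with 5 up and 6 down of 15 with stretch and 4 up and 6 down without. These were 73.3% and 66.7% of the 15, beside 52.0% and 57.8% of all tested genes. Kcnh2 (ENSMUSG00000038319, chromosome 5, 24319589 to 24351604, minus strand, 15 exons) had 114, 129 and 132 CPM in stretched knockdown cells, against 254, 273 and 334 CPM in stretched control cells. Without stretch it had 99.2, 114 and 124 CPM, against 269, 280 and 285 CPM. The highest knockdown library was far below the lowest control library, and the log2 fold changes were -1.14 (SE 0.0542, edgeR adjusted p = 7.3e-16) and -1.30 (SE 0.0545, adjusted p = 3.29e-17). Its scarce relative Kcnh6 fell by 1.54 and 1.70 (edgeR adjusted p = 8.71e-08 and 1.88e-08), while Kcnh7 was not called, at medians of 7.26 CPM in stretched knockdown cells and 7.79 CPM in stretched control cells.

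Kcnq1, the pore of the slow delayed rectifier, had 4.16, 4.88 and 5.73 CPM in stretched knockdown cells, against 6.32, 6.77 and 7.36 CPM in stretched control cells. It fell by 0.48 (SE 0.0803, edgeR adjusted p = 1.1e-05) with stretch and by 0.57 (SE 0.0804, adjusted p = 7.55e-07) without; 121 of its exon bases overlap the antisense transcript Kcnq1ot1. Its partner subunit Kcne1 went the other way, with 9.37, 9.83 and 10.2 CPM in stretched knockdown cells, against 7.05, 7.42 and 7.76 CPM in stretched control cells. Kcne1 rose by 0.40 and 0.39 (edgeR adjusted p = 1.37e-08 and 1.43e-08), but with the authors' own scaling factors the rise without stretch was 0.14 and was not called (adjusted p = 0.112). The silent subunit Kcng2 fell by 0.79 and 0.86 (edgeR adjusted p = 3.4e-15 and 3.62e-16), with medians of 37.7 CPM in stretched knockdown cells and 64.4 CPM in stretched control cells.

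Kcnd1, a pore of transient outward current, rose by 0.46 and 0.29 (edgeR adjusted p = 0.00288 and 0.0426). Without single libraries of the groups compared, the calls of Kcnd1 and Cacna1h in non-stretched cells were lost, with adjusted p up to 0.111 and 0.0844. Kcnh3, from a family of mainly neuronal channels, rose by 1.07 and 0.98 (edgeR adjusted p = 0.000109 and 0.000135) at medians of 1.02 CPM in stretched knockdown cells and 0.432 CPM in stretched control cells. Kcnd2 and its partner Kcnip2, which form the transient outward channel, were called with stretch alone, at 2.26-fold and 2.04-fold their control level (edgeR adjusted p = 0.00778 and 0.00643) at medians of 0.382 and 0.451 CPM in knockdown cells and 0.17 and 0.234 CPM in control cells. Neither gene passed the interaction test. The call of Kcnip2 was lost with the authors' factors (0.48, adjusted p = 0.303).

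Inward rectifiers set the resting potential or, as the G protein-gated and ATP-sensitive types, tie it to acetylcholine and metabolism. Kcnj5, a subunit of the acetylcholine-activated channel of atria (ENSMUSG00000032034, chromosome 9, 32314707 to 32344350, minus strand, 4 exons), had 6.05, 6.25 and 6.52 CPM in stretched knockdown cells, against 14.4, 15.5 and 16.8 CPM in stretched control cells. Without stretch it had 4.62, 5.57 and 6.05 CPM, against 13.1, 14.2 and 15.7 CPM. The groups did not overlap, and it fell by 1.31 (SE 0.0572, edgeR adjusted p = 7.28e-17) and 1.40 (SE 0.0582, adjusted p = 1.83e-17). Its partner Kcnj3 fell by 0.71 and 0.81 (edgeR adjusted p = 0.000204 and 3.87e-05), at medians of 1.15 CPM in stretched knockdown cells and 1.93 CPM in stretched control cells, and shares 1621 exon bases with Gm26794 on the other strand.

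Kcnj11, the pore of the ATP-sensitive channel, fell by 0.63 and 0.76 (edgeR adjusted p = 2.67e-07 and 6.39e-09), with medians of 9.76 CPM in stretched knockdown cells and 14.3 CPM in stretched control cells. Kcnj4, which encodes the classical inward rectifier Kir2.3, rose: it had 4.04, 4.18 and 4.58 CPM in stretched knockdown cells, against 2.04, 2.75 and 3.15 CPM in stretched control cells, a log2 fold change of 0.67 (SE 0.083, edgeR adjusted p = 1.03e-07), and 0.77 (SE 0.0805, adjusted p = 4.7e-09) without stretch. Kcnj12, which encodes Kir2.2, had a log2 fold change of -0.17 with stretch (adjusted p = 0.55), which was 0.000139 without stretched control replicate 5. Without stretch it fell by 0.51 (edgeR adjusted p = 0.0425), a call lost in many alternatives, with adjusted p up to 0.136.

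Kcnu1, a potassium channel known from sperm, rose by 0.89 and 0.69 (edgeR adjusted p = 0.000838 and 0.00438) at medians of 0.448 CPM in stretched knockdown cells and 0.218 CPM in stretched control cells. Kcnab2, an auxiliary subunit of Kv1 channels, stood at medians of 23.4 CPM in stretched knockdown cells and 23.0 CPM in stretched control cells, and was not called.

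Of 4 two-pore potassium channel genes tested, 2 fell in each comparison and none rose, beside 52.0% and 57.8% of all tested genes called. Kcnk3, which encodes the atrial background channel TASK-1, had 1.09, 1.46 and 1.72 CPM in stretched knockdown cells, against 2.66, 3.11 and 3.68 CPM in stretched control cells, and fell by 1.14 (SE 0.11, edgeR adjusted p = 1.16e-09); without stretch it fell by 1.13 (SE 0.111, adjusted p = 1.25e-09). Kcnk4, which encodes the stretch-sensitive TRAAK channel, fell by 0.62 and 0.41 (edgeR adjusted p = 0.000178 and 0.00636). On library totals the call without stretch was lost (adjusted p = 0.0629). It shares 587 exon bases with Catsperz on the same strand, so its reads are uncertain. Whether the authors' counting used strand is not stated, so reads of members with an antisense partner cannot be assigned with certainty.

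Stretch for 60 min moved far fewer channel genes, and by small amounts. In knockdown cells 7 of 70 members rose and 1 fell, or 11.4%, beside 8.93% of all tested genes, of which 5.32% rose and 3.61% fell. In 5 members every stretched knockdown library was above every non-stretched one and in 2 every one was below; among all tested genes 5.44% did not overlap, 3.49% being higher and 1.95% lower. In control cells 1 rose and 2 fell, or 4.29%, beside 5.95%, of which 2.55% rose and 3.39% fell. Groups did not overlap in 1 member, which was lower with stretch, beside 3.19% of all tested genes (1.15% higher, 2.04% lower). Both shares were near the background. Without stretched control replicate 5, 12 members were called in knockdown cells and 7 in control cells. Calls over all genes in control cells then came to 2023 instead of 857. Without both outlying libraries, chosen after seeing the data, 17.1% of members were called in knockdown cells, beside 15.3% of all tested genes. For control cells these shares were 14.3% and 20.3%. In knockdown cells, calls over all genes ranged from 856 to 1930 over single libraries left out, against 1287 with every library. The count of members in knockdown cells dropped to 4 without stretched knockdown replicate 1, to 5 without stretched knockdown replicate 4 and to 5 without non-stretched knockdown replicate 2. The count of members in control cells dropped to 1 without non-stretched control replicate 2.

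In knockdown cells, Cacna1c did not overlap between its groups, with 31.5 to 33.8 CPM in stretched knockdown cells and 23.1 to 29.8 CPM in non-stretched knockdown cells, and rose by 0.23 (SE 0.0531, edgeR adjusted p = 0.00686). Smaller rises were those of Kcnj5 (0.21, SE 0.0614, adjusted p = 0.0309), Hcn4 (0.19, SE 0.0541, adjusted p = 0.0231) and Cacna2d1 (0.16, SE 0.0451, adjusted p = 0.0214), all by edgeR. Among these, Hcn4, Kcnj5 and Cacna2d1 each lost the call without single knockdown libraries, stretched replicate 1 among them. Over all alternatives their adjusted p reached 0.0701 for Hcn4, on library totals, 0.0736 for Kcnj5 and 0.0605 for Cacna2d1.

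Larger folds came from scarce genes. Kcnk7, a two-pore family member that gives no current on its own, had 0.482 to 0.782 CPM in stretched knockdown cells and 0.211 to 0.401 CPM in non-stretched knockdown cells, a log2 fold change of 1.10 (SE 0.305, edgeR adjusted p = 0.0223), which was not called without stretched knockdown replicate 1 or 4 or non-stretched knockdown replicate 2 or 5. Kcnj14, which encodes Kir2.4, rose by 0.61 (SE 0.15, adjusted p = 0.0103), with 1.31 to 2.09 CPM in stretched knockdown cells and 0.759 to 1.31 CPM in non-stretched ones. The only fall was that of Kcna7, which encodes Kv1.7, by 0.22 (SE 0.06, adjusted p = 0.0201), lost without stretched knockdown replicate 5 or non-stretched knockdown replicate 6. Of the 8 atrial markers 4 rose in this comparison; their summed level was 1033 to 1088 CPM in stretched and 890 to 970 CPM in non-stretched knockdown cells, and their part was not tested.

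In control cells Hcn4 rose by 0.20 (SE 0.052, edgeR adjusted p = 0.0186), with 84.5 to 110 CPM in stretched and 75.8 to 91.4 CPM in non-stretched control cells; it was not called without non-stretched control replicate 2. Cacnb3 fell by 0.16 (SE 0.0339, adjusted p = 0.00646), with 107 to 118 CPM in stretched and 120 to 128 CPM in non-stretched control cells, which did not overlap. Kcna7 fell by 0.21 (SE 0.0594, adjusted p = 0.0304), a call lost without any of 8 single libraries. Hcn4 and Kcna7 were thus called in the same direction in both kinds of cell. Without stretched control replicate 5, Kcnj11 fell by 0.35 (SE 0.0571, edgeR adjusted p = 0.000167), Kcnj12 by 0.60 (adjusted p = 0.0484) and Hcn2 by 0.23 (adjusted p = 0.038), and Cacnb2 rose by 0.16 (adjusted p = 0.0159).

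**Figure D4:**
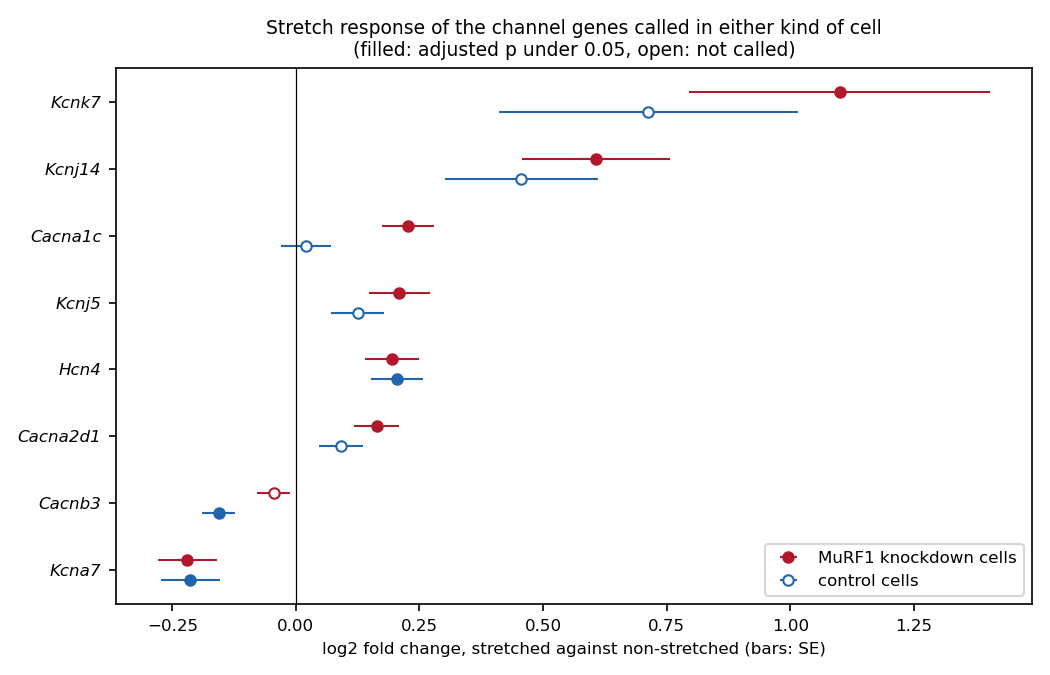
Log2 fold change with its SE, stretched against non-stretched cells, for 8 channel genes called in either kind of cell; knockdown cells are the upper of each pair and control cells the lower, filled where adjusted p was under 0.05. Cacna1c lay at 0.23 in knockdown cells and near 0, at 0.02, in control cells.

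The difference between both stretch responses was tested as an interaction. No member was called by edgeR, beside 0.0208% of all tested genes, and 6 members had an unadjusted p under 0.05. DESeq2 called 1 member. Cacna1c differed by 0.21 (SE 0.0733, edgeR adjusted p = 0.34). In stretched control replicate 5 Cacna1c stood at 69.7 CPM, against 56.3 to 58.8 CPM in the other libraries of its group. Without that library Cacna1c differed by 0.26 and was called (edgeR adjusted p = 0.0392). Interaction calls over all genes ranged from 0 to 109 over single libraries left out, against 3 with every library.

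Genes that work with these channels but fall outside the rule were described from a list of 32, of which 27 were tested. With the knockdown 7 rose and 15 fell with stretch, and 5 rose and 15 fell without, at medians of -0.12 and -0.19. The share called was 81.5% and 74.1%, beside 52.0% and 57.8% of all tested genes. Rrad, an inhibitor of L-type channels, averaged 15.0 ± 0.45 CPM in stretched knockdown cells and 28.7 ± 2.74 CPM in stretched control cells (SD, n = 6 each), and fell by 0.93 with stretch and by 1.16 without (edgeR adjusted p = 2.16e-14 and 1.41e-16). Cav3, the muscle caveolin, fell by 1.02 and 1.16, and Ank3, the ankyrin that anchors sodium channels, by 0.64 and 0.79. Fgf13, a sodium channel modulator, rose by 0.54 and 0.61, and Ank2 by 0.74 and 0.92. Abcc8, the sulphonylurea receptor that pairs with the Kcnj11 pore, was not called, at 58.4 ± 1.41 CPM in stretched knockdown cells and 59.3 ± 4.54 CPM in stretched control cells (SD, n = 6 each). Stretch raised 5 partner genes in knockdown cells and lowered none, and raised 1 (Popdc2) and lowered 1 (Rrad) in control cells. These were 18.5% and 7.41% of the 27, beside 8.93% and 5.95% of all tested genes.

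The 65 members that did not pass the filter on low counts held 1 to 140 counts in total over the 24 libraries, and 21 of them were at 0 in 12 or more libraries. Among the cardiac channel genes these were Scn4b, Kcnd3, Kcna4, Kcna5, Kcnj2, Kcnj8, Kcnn2 and Kcnma1. Kcnj2, the main inward rectifier pore of ventricle, had 101 counts in all, Kcnd3 had 92.6, and Kcna5, an atrial repolarising channel, had 2. A fit without the filter called 4 of the 65 up with the knockdown in stretched cells. In non-stretched cells it called 3 up and 1 down, and it called none for stretch. Of all 20274 genes that fit called 37% for the knockdown in stretched cells and 42.3% in non-stretched cells. Of the 135 members it called 30.4% and 32.6%. Of the cardiac genes named here Kcnd3, a pore of transient outward current, was called in both knockdown comparisons and the others in neither. Kcnd3 levels are low, with a lowest, median and highest level of 0.0711, 0.157 and 0.184 CPM in stretched knockdown cells, against 0, 0.0474 and 0.123 CPM in stretched control cells. Without stretch it had 0.0636, 0.109 and 0.222 CPM, against 0, 0.0259 and 0.100 CPM in control cells. The groups overlapped in both comparisons, and the log2 fold changes without the filter were 1.58 (SE 0.551, edgeR adjusted p = 0.0226) and 1.55 (SE 0.559, adjusted p = 0.0248).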

How the data were processed

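Estimated counts per gene for 24 libraries were deposited by the authors; per the submitters' processing notes kallisto 0.44.0, DESeq2 1.18.1, R 3.4.4 and GRCm38.p6 were used. Neither the annotation release nor the use of strand in counting is given in the sources used here. In the table, 36.6% of values were whole within 1e-09. A second deposited table holds a normalized signal by the authors, used only to derive scaling factors as an alternative. After rounding, edgeR 4.0.16 (R 4.3.3) was run with TMM factors, filterByExpr (min.count 10, min.total.count 15) and a robust quasi-likelihood fit of 4 groups over all 24 libraries, with 20 residual degrees of freedom. Benjamini-Hochberg adjustment covered all 14411 tested genes, with a threshold of 0.05. Log2 fold changes are given with standard errors (SE).

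The members, families, cardiac genes, partner genes and marker lists were chosen with earlier results of these data known. Named were all members called in a stretch comparison, the 10 largest rises and 10 largest falls per knockdown comparison of average log2 CPM 0 or more, the cardiac genes, and the member with the highest level per length of each family; some of these are not reported here, and other members named were added after their values were seen. Positions, exons and lengths came from GENCODE vM21 on GRCm38, promoters from RefSeq. The fits were tested on simulated data. Replicates within groups (60 pairs) differed beyond sampling noise, by a chi-square per gene of at least 2.80. Alternatives were DESeq2 1.42.0 (size factors and test), other filters, fits of only the groups compared, the authors' factors, a replicate block, and leaving out each library.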

Additional observations from a re-analysis of the deposited data

Results flagged for a closer look

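Among the 6 libraries of a group, a single library stood far from the others by Dixon's ratio in 9 of 140 combinations of a reported gene and a group; chance flags about 1 in 20. In 4 of the 9 the library was stretched control replicate 5, which was the highest of its group each time: Cacna1c at 69.7 CPM (others 56.3 to 58.8), Cacng7 at 21.3 (15.5 to 16.6), Kcnj11 at 21.0 (13.1 to 15.5) and Kcnk7 at 1.47 (0.268 to 0.650). Stretched control replicate 6 was lowest for Cacna2d3, at 1.21 CPM (1.496 to 1.62). Stretched knockdown replicate 1 was highest for Cacnb2, at 25.03 CPM (21.1 to 22.5). Stretched knockdown replicate 5 was highest for Kcnj12, at 0.593 CPM (0.276 to 0.389). Non-stretched knockdown replicate 4 was lowest for Cacna1c, at 23.1 CPM (27.9 to 29.8), and non-stretched control replicate 4 was highest for Kcnj4, at 3.28 CPM (2.81 to 2.98). The cause was not tested.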

How the results depend on the processing

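Of 90 results for single genes, 62 kept their direction and side of the threshold under every alternative run. Of the rest, 23 lost the call under at least 1, 2 gained one and 3 reversed. Among the 90, 77 were called with the main settings, and 54 of these kept the call everywhere. Members added after their values were seen, such as Kcng2, Kcnh3 and Kcnu1, are not among the 90. Without single libraries, members called ranged from 4 to 12 for stretch in knockdown cells and 1 to 7 for stretch in control cells. They ranged from 36 to 40 for the knockdown with stretch, 37 to 42 for it without, and 0 to 1 for the interaction. Calls over all tested genes ranged from 856 to 1930, 568 to 2023, 7102 to 8017, 7974 to 8888 and 0 to 109, in the same order. For stretch in control cells, the fit of only the groups compared called 1 member, against 3; leaving out both outlying libraries, chosen after seeing the data, called 10 (14.3%, beside 20.3% of all tested genes). The interaction had 1 call by DESeq2's test and 1 without both outlying libraries (1.43%, beside 1.13% of all tested genes). Cacna1c under stretch in control cells reversed to -0.029 without stretched control replicate 5 and to -0.038 without both, with a range of -0.029 to 0.040 over single libraries left out. Under the knockdown with stretch, Cacna1h was 0.011 without stretched knockdown replicate 3 (range -0.12 to 0.011), 0.0094 without both and 0.057 on library totals. There, Kcnj12 was 0.000139 without stretched control replicate 5 (range -0.33 to 0.000139) and 0.014 without both. The cause was not tested. The labels do not say that the replicate numbers pair the samples. Same-numbered libraries of different groups had correlations of -0.064 to 0.147 over 36 pairs (median 0.015). Libraries of different number and group had -0.178 to 0.267 over 180 pairs (median -0.0052). Of the 24 libraries, 8 correlated best with their own number. These values do not settle whether the numbers pair the samples. With a replicate block 9, 4, 37, 42 and 0 members were called for the 5 comparisons in the order above. Calls over all genes are not given here for the block or for the fit of only the groups compared. Their member counts therefore have no background share beside them. Depth limits the scarce members, 65 of which did not pass the filter.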
